A study of Mus musculus with 4 samples.

Results

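The secreted Wnt antagonists Wif1, Sfrp1, Sfrp2, Sfrp4, Sfrp5, Frzb, Dkk2, Dkk3 and Sost were described in single Cxcl12CE-tdTomato+ cells of mouse femoral bone marrow, with and without marrow ablation. The 9 genes were chosen by name, with earlier results of these data known. All 9 were among the 28006 features listed in each of the 4 libraries.

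Wnt ligands bind a Frizzled receptor together with the co-receptor LRP5 or LRP6, which stabilises β-catenin and turns on target genes, and in bone this pathway promotes osteoblast formation. Secreted antagonists act outside the cell. WIF1 and the secreted Frizzled-related proteins (SFRP1, SFRP2, SFRP4, SFRP5 and FRZB) can bind the ligands themselves, whereas DKK2 and sclerostin, the product of Sost, bind LRP5 and LRP6. DKK3 is a divergent member of the Dickkopf family. In the skeleton, sclerostin is known as a product of osteocytes and FRZB as a product of cartilage.

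On GRCm38 with the GENCODE M21 annotation all 9 are protein-coding genes. The ligand-binding members are Wif1 (chr10:121033960-121100650, plus strand), Sfrp1 (chr8:23411502-23449632, plus), Sfrp2 (chr3:83766321-83774316, plus), Sfrp4 (chr13:19623104-19632994, plus), Sfrp5 (chr19:42197971-42202252, minus) and Frzb (chr2:80411970-80447625, minus). The others are Dkk2 (chr3:132085292-132180304, plus), Dkk3 (chr7:112116017-112159057, minus) and Sost (chr11:101962458-101967015, minus).

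Cells came from Cxcl12-iCreER; R26R(tdTomato/+) mice, given tamoxifen 7 days before the surgery and analysed 7 days after it. The creER, carried on a bacterial artificial chromosome, marks a subset of CXCL12+ perisinusoidal stromal cells, and the tdTomato label passes to their progeny. The marrow of the right femur was removed with an endodontic instrument (ABL), and the untouched left femur served as the contralateral control (CONT), so by this design both groups carried the same alleles and received the same tamoxifen. Sorted tdTomato+ cells gave 2 CONT and 2 ABL libraries. Cells of several mice were pooled in replicate 1. Replicate 1 was made with Chromium chemistry v2 and replicate 2 with v3, so replicate and chemistry cannot be told apart.

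After filtering, the libraries held between 1459 and 3433 cells, with a median of 5714 to 12895.5 UMIs (unique molecular identifiers) per cell. Before filtering, all droplets together held 22889380 to 41536563 UMIs in 3 libraries and 44784072 in CONT1. The kept cells held 56.7% of these UMIs in CONT1, 59.1% in ABL1, 83.5% in CONT2 and 85.3% in ABL2. Cells were clustered without the 9 genes and without the other Wnt pathway genes. Clusters were then named from marker genes, and every class name below stands for cells with those markers (reticular-like, pre-osteoblast-like and so on) in clusters rebuilt here. Between 679 and 2053 cells per library were mesenchymal. A tdTomato UMI was found in 95.7% to 97.6% of mesenchymal cells, against 30% to 61.2% of hematopoietic cells, so the sorted fraction also held cells of other lineages. The CONT1 and ABL1 libraries shared 5 cell barcodes, CONT2 and ABL2 shared 1, and no other pair shared any. ABL2 stood apart: Xist, the transcript of the inactive X chromosome of female cells, had a UMI in 49.8% of mesenchymal cells of CONT1, 81.3% in ABL1 and 71.9% in CONT2, but in 0.0553% in ABL2. Replicate 2 therefore compared cells that differed in Xist as well as in surgery. Nothing in the labels says whether the CONT2 and ABL2 femora came from the same mice, which is doubtful given these shares, so values for replicate 1 alone stand beside them. Within replicate 1 the Xist shares differed too, at 49.8% in CONT1 and 81.3% in ABL1.

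Reticular-like cells numbered 1154 in CONT1, 399 in ABL1, 1957 in CONT2 and 340 in ABL2. They carried the markers of the label: Cxcl12, the chemokine that names the cells, stood at 17270, 15720, 17230 and 14310 CPM (its share of the UMIs of the class, scaled to 1000000). Pre-osteoblast-like cells numbered 49, 88, 31 and 78 in the same order. Their Alpl, the alkaline phosphatase of mineralising cells, stood at 936.9, 1223, 543.5 and 581.2 CPM, against 40.7, 256.3, 31.5 and 172.4 in reticular-like cells. In pre-osteoblast-like cells the 8 pre-osteoblast markers summed to 9513, 22660, 16730 and 25770. The 10 reticular markers summed to 14280, 6516, 17030 and 2783 there, so the class also carried reticular markers, above all in CONT.

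The antagonists differed in the classes that held them. At the main clustering resolution Wif1 was highest in pre-osteoblast-like cells of CONT1, ABL1 and CONT2, and Frzb in chondrocyte-like cells. Sfrp4 was highest there in periosteal-like cells and an unnamed group near them. At full depth an Sfrp4 UMI was found in 75.3% to 91.6% of reticular-like cells, and an Sfrp1 UMI in 34.8% to 68.0%. Dkk2, Sfrp5 and Sost were scarce. Comparisons between classes are descriptions, since the classes come from the same cells. All levels are in CPM, and they are compared between classes and libraries, not between genes. Intervals are exact 95% Poisson intervals for levels and exact 95% binomial intervals for shares, which cover counting error only. Where a class had no UMI, the level it allows is given as that of 3 counts, not as the end of such an interval.

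**Figure D1:**
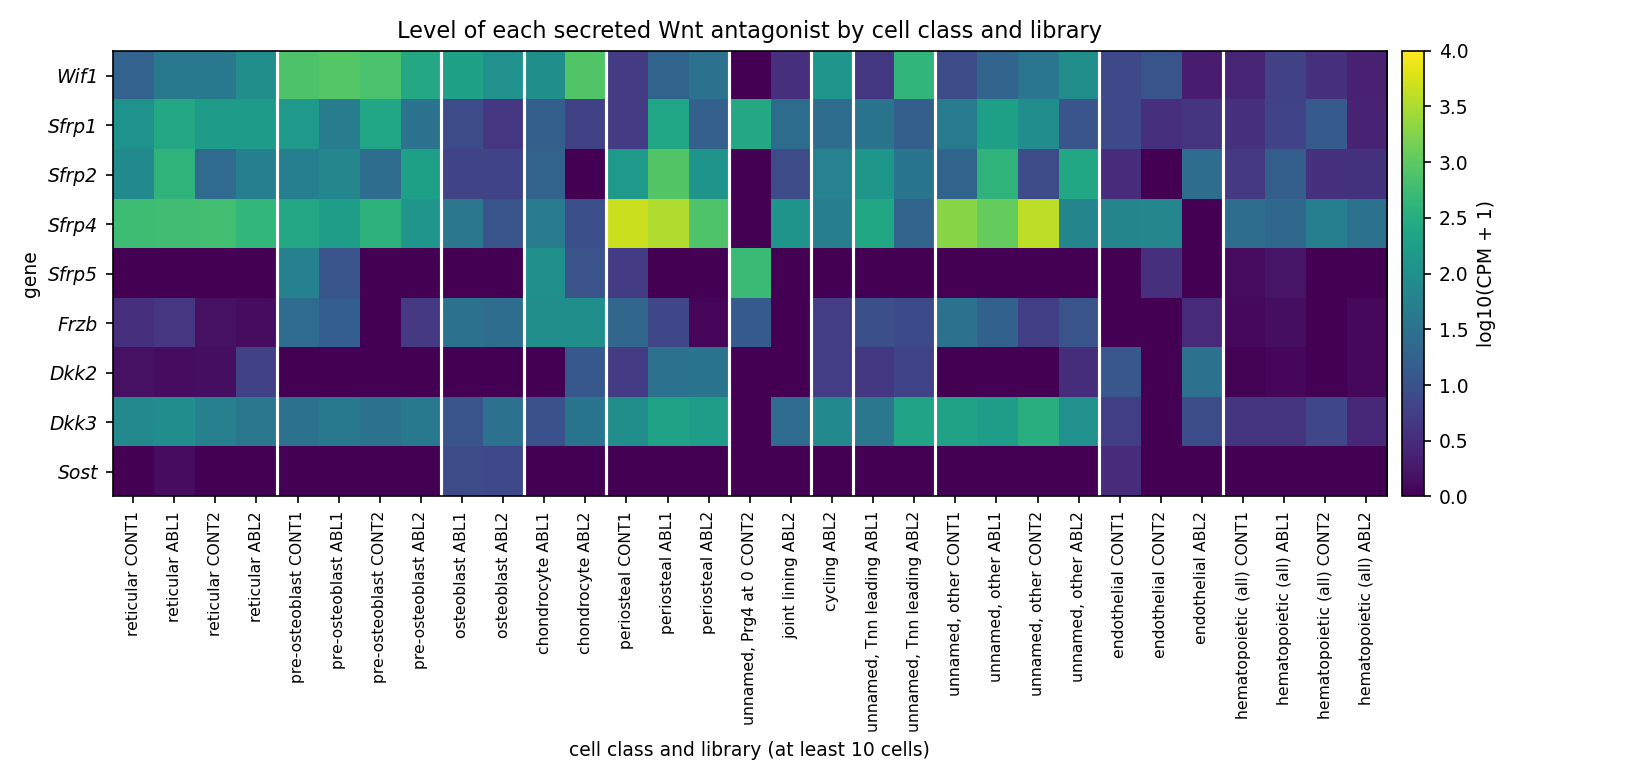
Level of each secreted Wnt antagonist, as log10(CPM + 1), in every cell class and library with at least 10 cells; names omit the suffix "-like", and the column with Prg4 at 0 holds the 11 unnamed CONT2 cells. Wif1 is brightest in the pre-osteoblast columns of CONT1, ABL1 and CONT2 and in chondrocytes of ABL2. Sfrp4 is brightest in the periosteal columns of replicate 1 and an unnamed column of CONT2. Sfrp5, Dkk2 and Sost are dark in nearly all columns.

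Wif1 stood at 758.6 (661.0 to 866.6) in pre-osteoblast-like cells of CONT1, 873.2 (804.8 to 945.9) in ABL1, 700.4 (626.4 to 780.7) in CONT2 and 253.9 (220.8 to 290.6) in ABL2. In reticular-like cells it stood at 17.4, 40.05, 40.4 and 95.1. The lowest pre-osteoblast-like value was above the highest reticular-like value. With every cell thinned to 2000 UMIs, a Wif1 UMI was found in 63.3%, 60.2%, 64.5% and 24.4% of pre-osteoblast-like cells. Chondrocyte-like cells held Wif1 at 811.2 in ABL2 (76 cells) and 96.4 in ABL1 (20 cells), and the 8 of CONT1 had no UMI, which allows up to 25.5. The 8 osteoblast markers in these cells summed to 39870 in ABL2, 4626 in ABL1 and 1718 in CONT1. Wif1 was also held by a group of 287 ABL2 cells that could not be named and had Tnn, a matricellular glycoprotein gene, among its leading genes, at 432. In that group the level ran from 11.4 in a sub-cluster of 35 cells to 782.1 in a sub-cluster of 147. An unnamed group of 40 ABL1 cells that also had Tnn among its leading genes stood at 3.37. Its markers differed from those of the ABL2 group. The chondrocyte markers summed to 327.2 in ABL1 and 5496 in ABL2, and the pre-osteoblast markers to 10630 and 3020. These groups are therefore not compared.

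Because the classes differed in size and composition, the cells that supplied most Wif1 UMIs changed from library to library. Pre-osteoblast-like cells were 3.75% of the mesenchymal cells of CONT1 and held 66.0% of its mesenchymal Wif1 UMIs, and in ABL1 they held 66.8%. Reticular-like cells held 73.9% in CONT2, where they made up 95.3% of mesenchymal cells. In ABL2 the group with Tnn among its leading genes held 44.1%, chondrocyte-like cells 26.4% and reticular-like cells 5.80%.

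**Figure D2:**
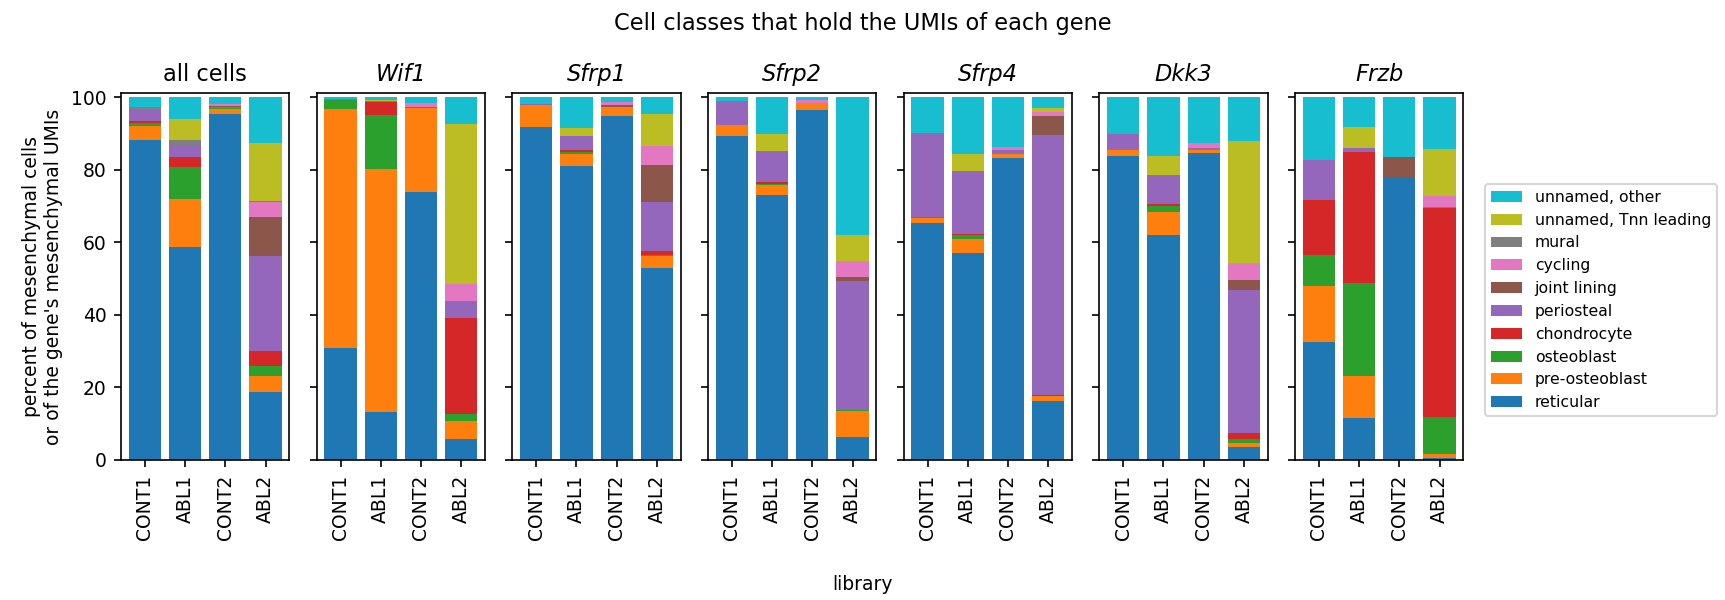
Percent of mesenchymal cells (left panel) and of the mesenchymal UMIs of 6 genes that lie in each cell class, for each library; names omit the suffix "-like", and "joint lining" in CONT2 is the 11 unnamed cells with Prg4 at 0. Reticular cells fill most of each CONT bar for Sfrp1, Sfrp2, Sfrp4 and Dkk3, while Wif1 and Frzb lie largely in other classes in CONT1, ABL1 and ABL2, and reticular cells fill most of the Wif1 bar of CONT2.

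Sfrp4 was the antagonist with a UMI in the largest share of reticular-like cells, 58.1%, 57.1%, 59.8% and 45.3% after thinning to 2000 UMIs. Its level there was 581.6, 590.4, 625.4 and 448.1. In periosteal-like cells (44, 22, 4 and 471 cells), which carry fibroblast genes of the bone surface, it reached 4788 (4519 to 5068) in CONT1, 3295 in ABL1 and 787.1 (766.2 to 808.5) in ABL2, each above the reticular-like value of the same library. An unnamed cluster of replicate 2 was led by Dio2, Mfap4 and Col14a1. Its Sfrp4 stood at 4022 in 36 CONT2 cells and 52.2 in 50 ABL2 cells, and its Sfrp2 at 7.55 and 991.1. Other genes differed as well. Dio2 stood at 1464 in the 36 CONT2 cells, but at 26.25 over the 229 unnamed ABL2 cells that include the 50. The reticular marker Lepr stood at 2053 and 12.84 in the same sets, so the libraries are not compared for this cluster. A cluster of replicate 1 that counted as periosteal-like had Sfrp4 at 5967 in 36 CONT1 cells and 5653 in 11 ABL1 cells.

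Most Sfrp1 and Dkk3 UMIs of the CONT libraries lay in reticular-like cells, which were also most of the cells. Reticular-like cells held 91.8% of the mesenchymal Sfrp1 UMIs in CONT1 and 94.7% in CONT2, and 83.7% and 84.7% of those of Dkk3. They were 88.3% and 95.3% of the mesenchymal cells there. The Sfrp1 level in CONT1 and CONT2 was 143.3 and 232.0 in pre-osteoblast-like cells, against 106.5 and 154.8 in reticular-like cells. In ABL2, where reticular-like cells were 18.8% of mesenchymal cells, they still held 52.8% of Sfrp1 but only 3.53% of Dkk3, of which periosteal-like cells held 39.4% and the group with Tnn among its leading genes 33.6%. The Dkk3 level in periosteal-like cells was 92.9 in CONT1, 202.8 in ABL1 and 167.4 in ABL2, against 75.9, 90.8 and 37.7 in reticular-like cells. Of the Sfrp2 UMIs, reticular-like cells held 89.4% in CONT1, 72.9% in ABL1 and 96.5% in CONT2, but 6.38% in ABL2. There periosteal-like cells held 35.7% and other unnamed cells 38.0%. Periosteal-like cells held 6.69% of Sfrp2 in CONT1 and 8.46% in ABL1, as 3.37% and 3.24% of the mesenchymal cells, and the 4 of CONT2 held none.

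The scarce members were found in few cells. Frzb reached 93.4 in 20 chondrocyte-like cells of ABL1 and 95.5 in 76 of ABL2, with a UMI in 7 and 32 of these cells, and 31.4 and 26.3 in osteoblast-like cells. It was at most 3.34 in reticular-like cells. Dkk2 had 227 UMIs in the 471 periosteal-like cells of ABL2 (33.4, 29.2 to 38.0), spread over 45 cells, while 14 of its UMIs in ABL2 reticular-like cells all lay in 1 cell. In endothelial-like cells, which are not mesenchymal, Dkk2 stood at 11.2 in CONT1 and 29.9 in ABL2, in 8 of 116 ABL2 cells.

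Sfrp5 was carried by small sets of cells. A set of 11 CONT2 cells had an Sfrp5 UMI in 10 cells and a level of 526.5. These cells clustered with 196 joint lining-like cells of ABL2, but Prg4, the lubricin gene that marks joint lining, was at 0 in the 11 cells and at 59570 CPM in the 196, so the 11 cells are left unnamed and the libraries are not compared. The 196 cells had no Sfrp5 UMI, which allows a level of up to 0.918. In replicate 1 its UMIs lay in 1 pre-osteoblast-like cell of CONT1 (16 UMIs) and 1 chondrocyte-like cell of ABL1 (34 UMIs), among others. Reticular-like cells had none in any library, and in CONT2, the deepest, this allows a level of up to 0.116. Sost, the osteocyte product, was detected in osteoblast-like cells of the ABL libraries at 7.13 and 6.57, in 1 of 60 and 1 of 50 cells. These members were too scarce for a comparison of ABL with CONT within a class.

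Free RNA gives UMIs in cells that do not express a gene, so these shares were set beside those of hematopoietic cells, which should lack the genes. There a Wif1 UMI was found after thinning in 0.394%, 1.03%, 0.920% and 0.489% of cells, against 2.77%, 6.27%, 7.87% and 13.5% of reticular-like cells. For Sfrp2 the hematopoietic shares were 0.443%, 3.21%, 0.613% and 0.163%, against 12.1%, 41.6%, 3.58% and 8.24%. Without thinning, reticular-like cells had a Wif1 UMI in 6.33%, 13.5%, 29.4% and 26.2% of cells and an Sfrp2 UMI in 24.4%, 68.2%, 15.2% and 22.4%. Median depths were 4501, 6635, 12698 and 7494 UMIs in reticular-like cells and 7194, 7539.5, 14600.5 and 11104 in hematopoietic cells. In each library the reticular-like share was above the hematopoietic share for both genes.

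Whether ablation changed the antagonists within reticular-like cells was asked with counts summed per library and edgeR's quasi-likelihood test with the replicate as a block. Sfrp2 and Wif1 rose. Of 11350 genes tested, 4.61% passed a Benjamini-Hochberg adjusted p of 0.05, 2.41% as higher in ABL and 2.19% as lower. Of the 9 members 6 could be tested, and 2 were higher and 0 lower. Their median log2 fold change was 0.28, against -0.01 over all genes tested. Sfrp5, Dkk2 and Sost did not pass the filter on low counts.

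Sfrp2, which encodes a Frizzled-related protein, stood at 78.4 (71.3 to 85.9) in CONT1, 396.9 (374.6 to 420.1) in ABL1, 23.6 (21.8 to 25.6) in CONT2 and 52.2 (43.9 to 61.5) in ABL2. ABL was above CONT in both replicates, but the ABL2 value was below the CONT1 value, so the groups overlapped across chemistries. The log2 fold change was 1.66 (SE 0.28, n = 2 pairs of libraries, edgeR quasi-likelihood test, Benjamini-Hochberg adjusted p = 2.24e-07). The pairs gave 2.19 (replicate 1) and 1.02 (replicate 2). All 5 reticular-like clusters of replicate 1 had more Sfrp2 in ABL, from 74.2 against 190.4 in 1 of them to 90.4 against 558.9 in another. Its values by cluster in replicate 2 are not given here. Without the replicate block the adjusted p was 0.999. Among cells with a Y-linked UMI and no Xist UMI in all libraries the fold change was 2.1 (SE 0.44, edgeR adjusted p = 0.0339).

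Wif1 stood at 17.4 (14.2 to 21.2) in CONT1, 40.05 (33.2 to 47.9) in ABL1, 40.4 (38.0 to 42.9) in CONT2 and 95.1 (83.8 to 107.5) in ABL2. It was higher in ABL within each replicate, and ABL1 and CONT2 overlapped. The log2 fold change was 1.12 (SE 0.24, edgeR quasi-likelihood test, Benjamini-Hochberg adjusted p = 0.000156). The pairs gave 1.05 (replicate 1) and 1.12 (replicate 2). In replicate 2 the level was higher in ABL in 5 of 7 reticular-like clusters, for example 43.4 against 240.3, and lower in 2 of them, with 75.8 against 45.2 in the larger. Values by cluster in replicate 1 are not given here. The call was lost with DESeq2 (adjusted p = 0.0558), without integration of CONT and ABL before clustering (0.57, edgeR adjusted p = 0.414), without the replicate block (adjusted p = 0.999) and among cells with a Y-linked UMI and no Xist UMI (0.66, SE 0.33, edgeR adjusted p = 0.593).

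**Figure D3:**
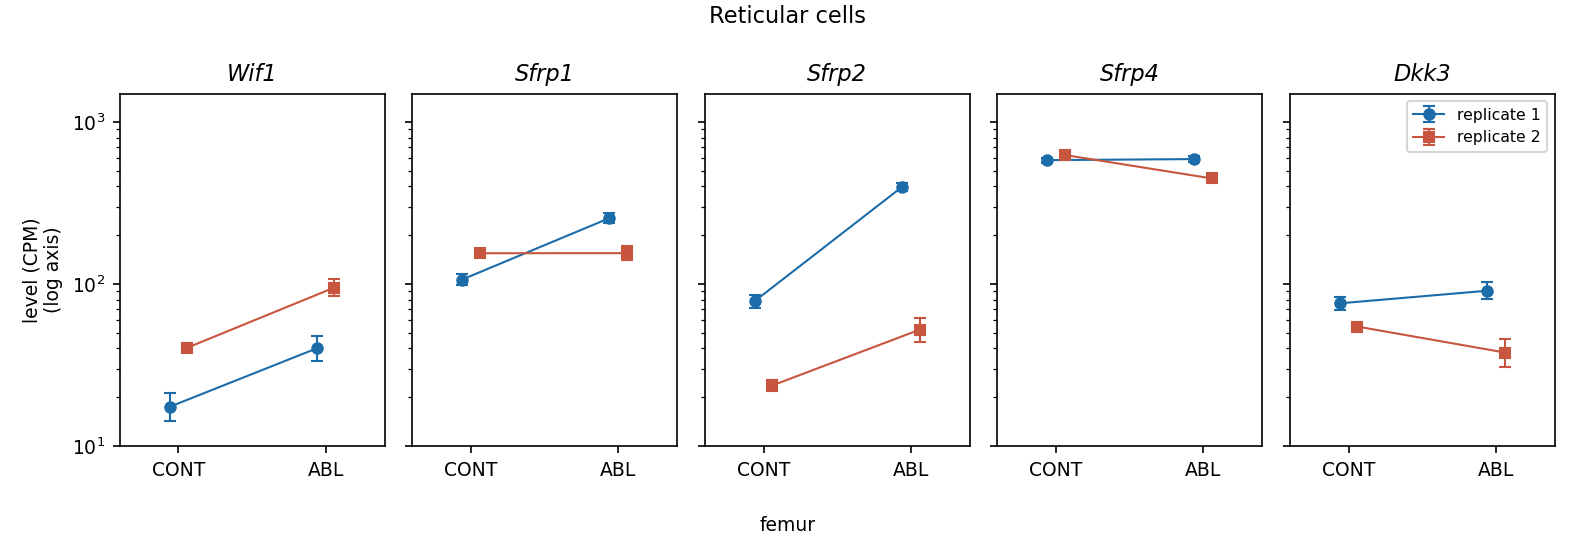
Level in CPM (log axis) of 5 secreted Wnt antagonists in reticular-like cells of CONT and ABL femora, with lines joining the libraries of one replicate and bars for exact 95% Poisson intervals. The Sfrp2 and Wif1 lines rise in both replicates, the Sfrp1 line rises in replicate 1 and is flat in replicate 2.

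A minority of reticular-like cells held the Wif1 UMIs. The tenth of cells with most Wif1 UMIs held 100%, 88.3%, 60.4% and 73.9% of them. For Sfrp2 these shares were 63.7%, 41.7%, 83.4% and 70.2%, and for Sfrp4, at a higher level, 35.8%, 38.7%, 34.4% and 40.1%. Such a share depends on how scarce a gene is. In CONT1 only 73 of 1154 cells had a Wif1 UMI, which fixed the 100% in advance. These shares therefore do not rank the genes by concentration. Other measures moved with these results. The summed level of the 8 pre-osteoblast markers in reticular-like cells was 1753 in CONT1, 5927 in ABL1, 1888 in CONT2 and 6065 in ABL2, and the 9 chondrocyte markers gave 70.9, 193.6, 53.1 and 158.7. The 10 reticular markers were at 30170, 28310, 33210 and 28900. Col1a1, the collagen gene of osteoblasts, stood at 418.0, 2638, 178.2 and 1929. The part of these measures in the Sfrp2 and Wif1 results was not tested.

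Free RNA was measured in droplets of at most 300 UMIs. Wif1 stood there at 21.0, 107.9, 40.2 and 125.5, and Sfrp2 at 29.9, 159.7, 17.7 and 29.1. Free RNA made up an estimated 8.89%, 9.77%, 0.842% and 6.66% of the reticular-like UMIs, which would supply 1.87, 10.5, 0.339 and 8.36 of the Wif1 level and 2.66, 15.6, 0.149 and 1.94 of the Sfrp2 level. With this profile subtracted the fold changes were 0.99 for Wif1 (SE 0.24, edgeR adjusted p = 0.00153) and 1.69 for Sfrp2 (SE 0.28, edgeR adjusted p = 1.97e-07).

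The other members did not pass the test in reticular-like cells. Sfrp1 stood at 106.5 in CONT1, 255.0 in ABL1, 154.8 in CONT2 and 155.0 in ABL2 (0.53, SE 0.28, edgeR adjusted p = 0.378). It was higher in ABL in replicate 1 (1.11) and nearly level in replicate 2 (-0.11). Sfrp4 gave -0.33 (SE 0.36, edgeR adjusted p = 0.759), Dkk3 -0.22 (SE 0.24, edgeR adjusted p = 0.755) and Frzb, with 1 to 15 UMIs per library, 0.03 (SE 0.90, edgeR adjusted p = 0.993).

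In pre-osteoblast-like cells, Sfrp1 fell. Here 6744 genes were tested and 2.27% were called, 0.786% as higher and 1.48% as lower. Of the members 5 of 9 could be tested, and 1 was lower and 1 higher. Sfrp1, which can bind Wnt ligands, stood at 143.3 (102.9 to 194.5) in CONT1, 46.5 (31.8 to 65.6) in ABL1, 232.0 (190.3 to 280.1) in CONT2 and 32.5 (21.4 to 47.3) in ABL2. Both ABL values were below both CONT values. The log2 fold change was -2.24 (SE 0.49, edgeR quasi-likelihood test, Benjamini-Hochberg adjusted p = 0.000897). The pairs gave -1.43 (replicate 1) and -2.60 (replicate 2). The share of cells with an Sfrp1 UMI after thinning was 28.6%, 7.95%, 16.1% and 3.85%. The 10 reticular markers also moved in this class, with a summed level of 14280 in CONT1, 6516 in ABL1, 17030 in CONT2 and 2783 in ABL2, and Cxcl12 stood at 8740, 3565, 10460 and 1314. Col1a1 stood at 783.1, 4224, 522.1 and 10880, and the summed pre-osteoblast markers were higher in ABL in both replicates. The part of these measures in the Sfrp1 result was not tested.

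The effect of ablation on Sfrp1 differed between the classes. In a fit over both sums of every library, with a term for each library, 0.886% of 10611 genes were called for a difference, and Sfrp1 was the 1 member among them, with a log2 difference of -2.77 (pre-osteoblast-like minus reticular-like, SE 0.38, edgeR adjusted p = 7.05e-05). The reticular markers, lower in ABL in pre-osteoblast-like cells as given above, were at 30170, 28310, 33210 and 28900 in reticular-like cells, and the part of this shift in the difference was not tested. Wif1 gave -1.70 (SE 0.54, edgeR adjusted p = 0.196) and Sfrp4 -0.80 (edgeR adjusted p = 0.491). Sfrp1 was not alone among Wnt pathway genes. Igfbp4, listed as another secreted antagonist (-1.925, edgeR adjusted p = 0.00588), Wisp1 (-1.751, edgeR adjusted p = 0.0286) and Rspo3 (-1.569, edgeR adjusted p = 0.028) were called too. These genes were named after their values were seen.

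Sfrp2 was called higher in pre-osteoblast-like cells, but the call was lost without 1 sub-cluster. The number of called members in this class also fell from 2 to 1 under other settings, among them a stricter cell filter and empty droplets subtracted. It stood at 52.4 in CONT1, 71.2 in ABL1, 25.8 in CONT2 and 188.9 in ABL2 (1.69, SE 0.51, edgeR quasi-likelihood test, Benjamini-Hochberg adjusted p = 0.0457). The change was 0.53 in replicate 1 and 2.84 in replicate 2. Of the 78 ABL2 cells, 47 belonged to a sub-cluster led by Spp1, H19 and Mest, in which Sfrp2 stood at 291.3 and Wif1 at 47.6. The 31 other ABL2 cells had Sfrp2 at 13.1, Sfrp1 at 16.4 and Wif1 at 608.2, and the 29 CONT2 cells of their cluster had 29.5, 260.7 and 784.6. Without the 47 cells Sfrp2 was at -0.11 (SE 0.49, edgeR adjusted p = 0.946), while Sfrp1 was at -2.60 (edgeR adjusted p = 1.98e-05).

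**Figure D4:**
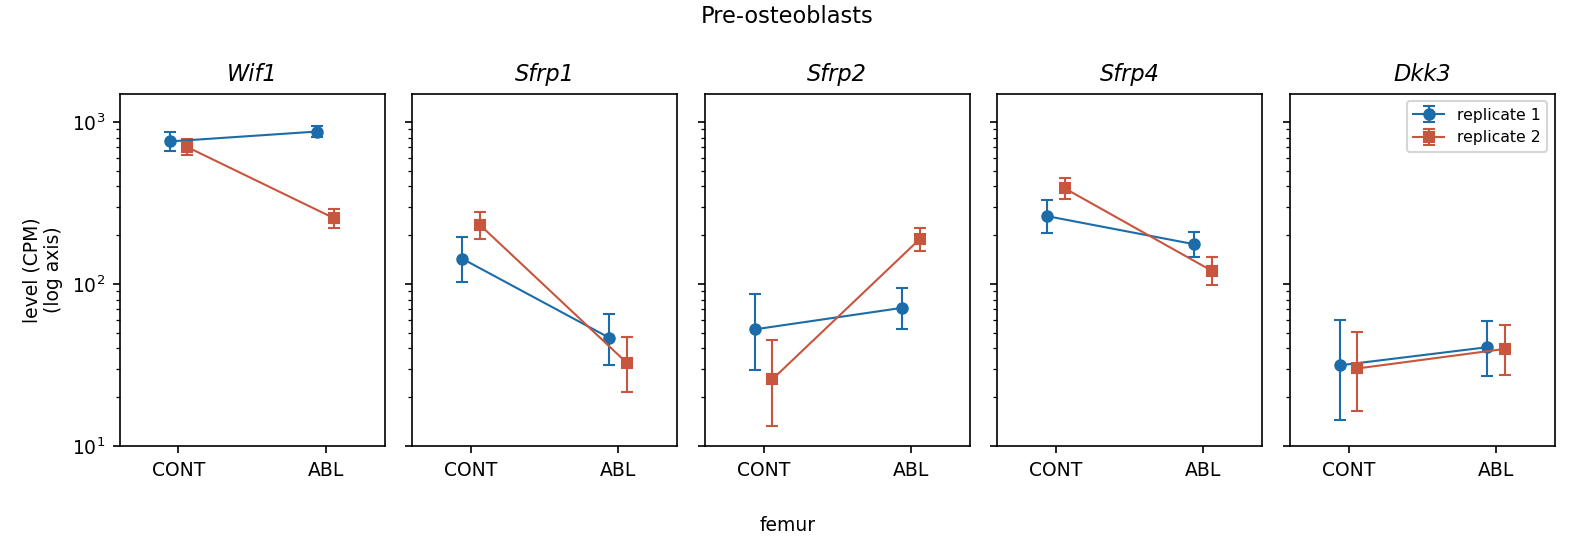
Level in CPM (log axis) of 5 secreted Wnt antagonists in pre-osteoblast-like cells, with lines joining CONT and ABL of one replicate and bars for exact 95% Poisson intervals. Sfrp1 falls in both replicates, and the low Wif1 and high Sfrp2 of ABL replicate 2 come with the sub-cluster led by Spp1, H19 and Mest.

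Wif1 (-0.63, SE 0.64, edgeR adjusted p = 0.731), Sfrp4 (-1.14, SE 0.53, edgeR adjusted p = 0.314) and Dkk3 (0.38, SE 0.50, edgeR adjusted p = 0.797) did not pass in pre-osteoblast-like cells. Wif1 was at 0.32 in replicate 1 and -1.33 in replicate 2. The wide errors do not show that these levels were alike.

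Over all mesenchymal cells, where the make-up of the sample enters as well as the level per class, no member passed the test with edgeR's quasi-likelihood test and Benjamini-Hochberg adjustment (0 of 8 tested, against 2.01% of 13662 genes, 1.49% higher and 0.520% lower). At an unadjusted p of 0.05 there were 4, and DESeq2 called 4. The share of all genes at these settings is not given, so these counts have no baseline. Wif1 stood at 48.1 in CONT1, 150.9 in ABL1, 51.4 in CONT2 and 173.1 in ABL2 (1.67, SE 0.46, edgeR adjusted p = 0.091), so that both ABL values were above both CONT values. Sfrp2 stood at 74.2, 273.7, 23.0 and 86.3 (1.86, SE 0.47, edgeR adjusted p = 0.064). Dkk2 gave 3.57 (SE 1.00, edgeR adjusted p = 0.0959) and Frzb 2.38 (SE 0.69, edgeR adjusted p = 0.103), from levels of at most 14.4. Both were larger in replicate 2 (4.62 and 3.63) than in replicate 1 (0.97 and 1.01). Sfrp1 (-0.85), Sfrp4 (-0.94), Dkk3 (0.39) and Sfrp5 (0.03) had adjusted p-values from 0.558 to 0.993 in the edgeR fit. The median of the 8 fold changes was 1.03, against -0.06 over all genes. It includes Dkk2, which had 4 UMIs in CONT1, 8 in ABL1, 10 in CONT2 and 297 in ABL2. Dkk2 may thus have passed the filter on low counts only through ABL. No direction of the members as a group is read from this median.

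In neutrophils 0 of 4 members tested were called (edgeR; 0 at an unadjusted p of 0.05), against 0.285% of all genes (0.173% higher and 0.112% lower), and in erythroid cells 1 of 2, against 0.830% (0.442% higher and 0.388% lower). The erythroid call was Sfrp2, at 3.21 in CONT1, 21.6 in ABL1, 3.32 in CONT2 and 9.30 in ABL2 (2.32, SE 0.58, edgeR quasi-likelihood test, adjusted p = 0.0125). Each of these levels was below that of the empty droplets of its library.

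Among the other 80 genes of the Wnt pathway, 48 were tested in reticular-like cells, and 6 were higher and 2 lower in ABL. Over all genes tested there, 2.41% were higher and 2.19% lower. Both called ligands rose: Wnt5a, a ligand known for β-catenin-independent signalling, went from 6.04 to 11 in replicate 1 and from 6.59 to 25.9 in replicate 2 (1.42, SE 0.33, edgeR adjusted p = 0.000791), and Wnt11 from 19.7 to 53.1 and from 7.98 to 16.3 (1.14, SE 0.26, edgeR adjusted p = 0.000661). Lgr5, a receptor for the Wnt-enhancing R-spondins, rose by 1.68 (SE 0.42, edgeR adjusted p = 0.00251). The pairs gave 0.46 (replicate 1) and 2.60 (replicate 2). These 3 calls were lost with DESeq2 (adjusted p of 0.297 for Wnt5a, 0.186 for Wnt11 and 0.393 for Lgr5), without integration (edgeR adjusted p from 0.142 to 0.308), without the replicate block (0.999) and among cells with a Y-linked UMI and no Xist UMI (edgeR adjusted p from 0.198 to 0.612). None of the 14 receptors and co-receptors tested and none of the 12 transduction genes tested was called by edgeR, with 1 and 0 at an unadjusted p of 0.05.

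Of the 9 known Wnt targets tested in reticular-like cells, 3 rose and 2 fell, against 2.41% and 2.19% of all genes tested. Wisp1, a matricellular protein gene, stood at 12.8 in CONT1, 43.4 in ABL1, 3.39 in CONT2 and 28.5 in ABL2 (2.30, SE 0.27, edgeR adjusted p = 1.8e-14). The cyclin gene Ccnd1 (2.50, SE 0.54, edgeR adjusted p = 0.000234) and the osteoprotegerin gene Tnfrsf11b (2.72, SE 0.79, edgeR adjusted p = 0.0171) also rose, from levels of at most 2.24 in CONT. Their ABL levels were low as well, at 9.35 and 7.4 for Ccnd1 and 5.67 and 2.96 for Tnfrsf11b. With empty droplets subtracted Tnfrsf11b had no test. Myc fell from 240 to 135 and from 267 to 135 (-1.01, SE 0.29, edgeR adjusted p = 0.0173), and the receptor decoy Bambi from 63.5 to 30.4 and from 47.0 to 24.8 (-1.10, SE 0.24, edgeR adjusted p = 0.00036). Among cells with a Y-linked UMI and no Xist UMI Bambi was at -0.48 (edgeR adjusted p = 0.836), and its call was also lost with DESeq2 (adjusted p = 0.0704) and without integration (edgeR adjusted p = 0.0675). Among those cells the calls of Ccnd1 (2.84, edgeR adjusted p = 0.118) and Myc (-1.11, edgeR adjusted p = 0.226) were lost too. DESeq2 lost Ccnd1 (adjusted p = 0.0548) and Tnfrsf11b (0.243), and without integration Tnfrsf11b (edgeR adjusted p = 0.0604) and Myc (0.206) were lost. Wisp1 lost its call only without the replicate block, where none of the 8 genes was called. Axin2, a feedback inhibitor and target of β-catenin signalling, was at 2.59, 3.67, 5.86 and 4.07 (-0.18, edgeR adjusted p = 0.94). The targets thus moved in both directions, and the 48 genes had a median of -0.09 against -0.01 over all genes.

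**Figure D5:**
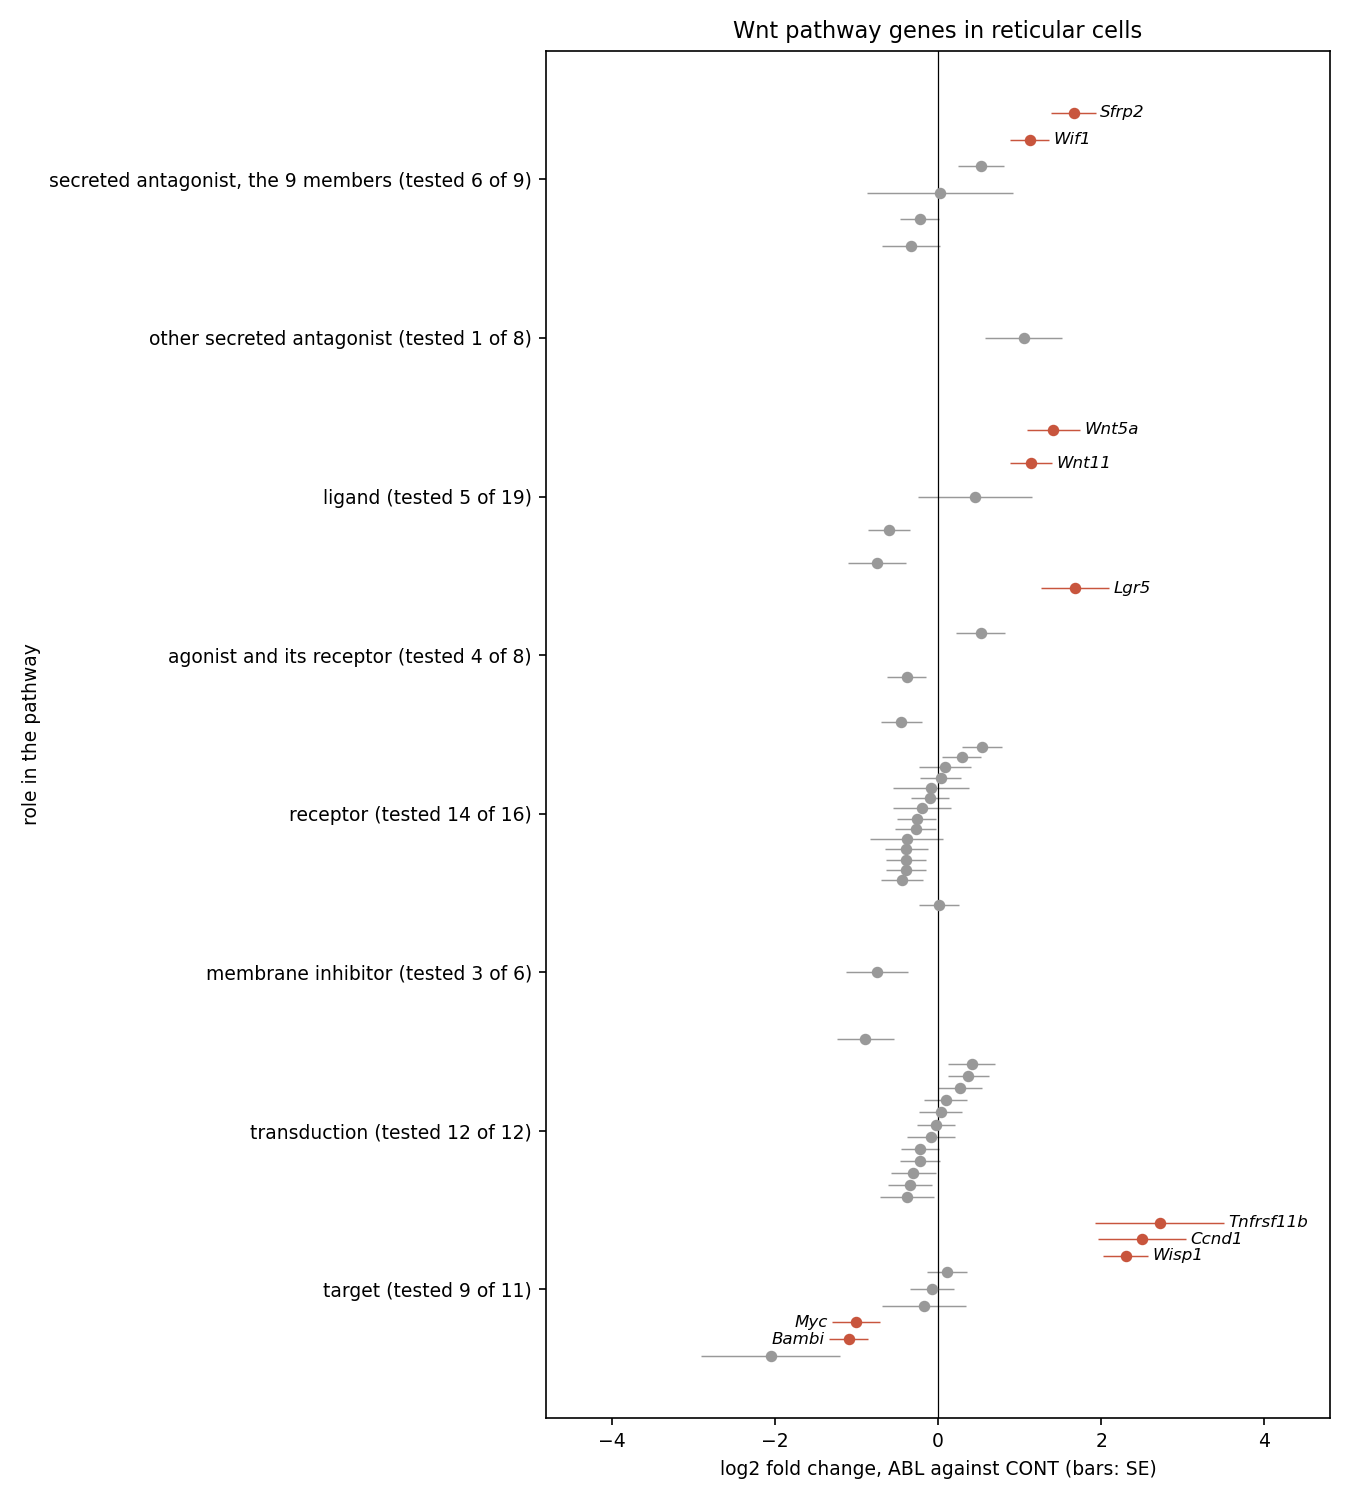
Log2 fold change of ABL against CONT in reticular-like cells for the 6 tested members and the 48 other tested Wnt pathway genes, grouped by role, with bars for the SE; labelled points passed an adjusted p of 0.05. Sfrp2, Wif1, Wnt5a, Wnt11, Lgr5, Ccnd1, Wisp1 and Tnfrsf11b lie to the right and Myc and Bambi to the left.

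Over all mesenchymal cells 3 of 56 tested pathway genes were higher and 0 lower, again Ccnd1 (3.24, edgeR adjusted p = 0.0115), Wisp1 (2.62, edgeR adjusted p = 0.02) and Tnfrsf11b (4.93, edgeR adjusted p = 0.00839). All genes tested there gave 1.49% higher and 0.520% lower. In pre-osteoblast-like cells 0 of 30 were higher and 2 lower, the receptor Fzd4 (-3.11, edgeR adjusted p = 0.00168) and the inhibitor Tmem88 (-2.40, edgeR adjusted p = 0.0146), named after their values were seen. All genes tested in this class gave 0.786% higher and 1.48% lower.

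For members that reached 50 CPM in some class, genes with the most similar pattern were sought among 7329 genes. The search ran over 38 class-by-library sums of at least 30 cells, which share libraries and depth. Hematopoietic and endothelial classes were included, so r also takes in differences between these and mesenchymal classes. Wif1 was most like Alpl (Pearson r = 0.893), Sdk2 (0.862) and Pth1r (0.842), of which Alpl and Pth1r are on the marker list of pre-osteoblasts. Sfrp4 was most like Fbln1 (0.939), C1s1 (0.923) and Cygb (0.921). Sfrp1 was most like Ank3 (0.933), Dlg5 (0.928) and Snai2 (0.924), and Dkk3 like Thbs2 (0.911), Tmem100 (0.905) and P4ha3 (0.904). Sfrp2 had a best match of 0.842 with Nfatc4, followed by Mfap2 (0.804) and Shc1 (0.802). Frzb was most like Chadl (0.824), Omd (0.82) and Panx3 (0.773).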

How the data were processed

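Reads were aligned and counted by the authors with Cell Ranger on mm10 with reporter sequences added, and Seurat is also named in the submitters' notes (versions not given in the sources used here). The deposited files are unfiltered matrices of UMI counts per gene and droplet, 1 for each of the 4 libraries. A droplet was kept as a cell if it passed the limits of the study, which were 500 genes and 20% of UMIs from mitochondria for v2 and 1000 genes and 15% for v3. Its depth also had to reach 1/10 of percentile 99 of the 3000 barcodes with most UMIs. CONT and ABL were integrated within each replicate with Seurat 5.3.0 (R 4.3.3; 2000 variable genes, 30 components, resolution 0.8) and clusters were named from 107 markers of 15 classes. The naming thresholds and the splitting of mixed clusters were set after the data were seen, and a difference from the study's classes may come from the rebuilt names.

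Counts were summed per library and class, filtered with filterByExpr, scaled by TMM and tested in edgeR 4.0.16 (quasi-likelihood, replicate as a block, 1 residual degree of freedom, Benjamini-Hochberg adjustment over all genes tested), for classes with at least 10 cells in every library, and DESeq2 1.42.0 was the alternative tool. The script was tested on simulated data. The replicate number pairs the samples because the labels tie it to the Chromium chemistry: deviations from the group means correlated between the libraries of a pair at 0.732 in reticular-like, 0.43 in all mesenchymal and 0.464 in pre-osteoblast-like cells. Nothing in the labels says which mice each library came from, so p-values refer to these libraries and not to mice. With 1 residual degree of freedom, each edgeR p-value rests mainly on a variance pooled over all genes and little on the gene's own spread. With 2 against 2 an exact permutation test cannot go below p = 0.333. Scrublet (scanpy 1.11.5) marked 78, 8, 2 and 25 doublets in CONT1, ABL1, CONT2 and ABL2, 0.083% in CONT2, where it hardly worked, and doublets were kept in the main values. Shares of cells are after thinning to 2000 UMIs where the paragraph says so. Other shares, among them those of tdTomato and Xist, and counts of cells with a UMI are at full depth.

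All 9 members are named in every fit. Of 80 other Wnt pathway genes those past the threshold in the reticular or all-mesenchymal fit are named, and for each member with at least 50 CPM in a class of 30 or more cells the 3 most similar genes (Pearson correlation of log2(CPM + 10)). Those of Sfrp5 are not reported here. The members and lists were chosen with earlier results of these data known. Alternatives were DESeq2, other scaling, filters on genes and cells, doublets removed, tdTomato UMI required, empty-droplet profile subtracted, other resolutions, no integration, no block and each replicate left out. Chosen after seeing the data were the restriction to cells with a Y-linked and no Xist UMI, the removal of the sub-cluster led by Spp1, H19 and Mest, and the fit of the difference between classes.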

Additional observations from a re-analysis of the deposited data

Results flagged for a closer look

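The effect of ablation on Sfrp1 differed between pre-osteoblast-like and reticular-like cells by a test of the difference itself (-2.77 on the log2 scale, SE 0.38, edgeR quasi-likelihood test, Benjamini-Hochberg adjusted p = 7.05e-05). The fold change was -2.24 in pre-osteoblast-like cells, lower in ABL in 2 of 2 replicates, and 0.53 in reticular-like cells, higher in 1 of 2. The pair-wise values were -1.43 and -2.60 in pre-osteoblast-like cells and 1.11 and -0.11 in reticular-like cells of replicates 1 and 2. The 10 reticular markers in pre-osteoblast-like cells summed to 14280 in CONT1, 6516 in ABL1, 17030 in CONT2 and 2783 in ABL2, and Adipoq stood at 720.2, 168.5, 751.9 and 67.4. Their part in the difference was not tested. The number of libraries is too small for a test for outliers within a group.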

How the results depend on the processing

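Sfrp2 in reticular-like cells kept its direction and its call under 12 of 13 alternatives with a test (adjusted p from 1.65e-08 to 0.999), and was lost without the replicate block. Wif1 in reticular-like cells (adjusted p from 2.41e-05 to 0.999) and Sfrp1 in pre-osteoblast-like cells (1.98e-05 to 0.248, lost without the block) kept their direction throughout. The number of called members in reticular-like cells, 2, was 0 without the replicate block and 1 with DESeq2, without integration and among Y-linked cells. Over all mesenchymal cells, 0 became 4 with DESeq2, the study's filter alone, the stricter filter and doublets removed, and 3 with library totals and among Y-linked cells. In pre-osteoblast-like cells, 2 became 0 without the block and 1 with DESeq2, no gene filter, the stricter cell filter, a tdTomato UMI required, empty droplets subtracted, resolution 0.4 or 1.5, and without the sub-cluster led by Spp1, H19 and Mest. The 1 erythroid call became 0 without the block, with DESeq2, with library totals and with doublets removed. The pathway genes called in reticular-like cells, 8, became 0 without the block, 3 with DESeq2, 2 without integration and 1 among Y-linked cells, and the 3 over all mesenchymal cells became 0 without the block, 1 without the gene filter, 5 with library totals, 6 with doublets removed, and 7 with DESeq2, either cell filter or Y-linked cells. The shares of all genes called under these alternatives are not given, so these counts have no baseline. The cause of these shifts was not tested.

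Direction turned for Sfrp1 in reticular-like cells (-0.11 without replicate 1, 1.11 without replicate 2), Dkk3 there (-0.64 and 0.11), and Frzb there with DESeq2 (-0.10), no gene filter (-0.009), a tdTomato UMI required (-0.032), empty droplets subtracted (-0.42), resolution 0.4 (-0.001) and without replicate 1 (-0.45, against 0.21 without replicate 2). Over all mesenchymal cells it turned for Sfrp1 (-2.29 without replicate 1, 0.62 without replicate 2) and Dkk3 (0.91 and -0.14), and for Sfrp5 under the stricter filter (-0.14), with empty droplets subtracted (-0.03) and without replicate 1 (-1.19, against 1.35 without replicate 2). In pre-osteoblast-like cells it turned for Wif1 (-1.33 without replicate 1, 0.32 without replicate 2) and for Sfrp2 without the sub-cluster (-0.11). Of the levels, mean Sfrp4 in periosteal-like cells, 2957, became 429.4 at resolution 0.4. That is below each reticular-like Sfrp4 level of the main setting, so the higher level in periosteal-like cells depended on the resolution. Mean Frzb in chondrocyte-like cells, 94.5, became 113.0 and 111.6 under the study's and the stricter filter, 98.2 with empty droplets subtracted, 62.0 at resolution 0.4 and 111.8 without integration, and in osteoblast-like cells, 28.8, it became 34.3 under the study's filter and 32.8 with empty droplets subtracted. No pre-osteoblast-like class with enough cells in every library remained without integration or among Y-linked cells, and DESeq2 gave no adjusted p for Sfrp2 there. Depth limits Sfrp5, Dkk2, Frzb and Sost, with 0 to 15 UMIs per library in reticular-like cells.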
